A study of Saccharomyces cerevisiae with 16 samples.

Results

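The histone genes of budding yeast, *Saccharomyces cerevisiae*, were followed with and without eIF4B, the translation initiation factor encoded by *TIF3*. The 10 members are the 8 genes of the core histones (*HTA1* and *HTA2* for H2A, *HTB1* and *HTB2* for H2B, *HHT1* and *HHT2* for H3, *HHF1* and *HHF2* for H4), *HTZ1* for the variant H2A.Z and *HHO1* for the linker histone H1. They were found by gene name, 10 of the 5330 genes listed at 37 °C and of the 5190 listed at 15 °C. The set was chosen on earlier results of these data, in which several histone mRNAs were among the lowest at 37 °C, so all values of the 37 °C comparison are given as a description.

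DNA is wrapped around an octamer of the core histones, with H2A paired to H2B and H3 paired to H4. Yeast carries a pair of genes for each core histone, arranged as divergent pairs that share the DNA between them, and transcribes them mainly in S phase, when new DNA has to be packed. H2A.Z replaces H2A in nucleosomes near promoters, and its gene and *HHO1* are single-copy genes outside these pairs.

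eIF4B assists the helicase eIF4A in opening mRNA 5′ leaders for the initiating ribosome. The strains were *tif3*Δ (FJZ52) and wild-type *TIF3* (FJZ46), each grown in synthetic complete medium, moved to either 37 °C or 15 °C and treated with cycloheximide for 2 min at harvest. From each culture both mRNA and the mRNA pieces covered by ribosomes (footprints) were read. The 16 libraries form 8 groups of 2, and each group has 1 log2 normalised value per gene in the deposited tables. No replicate spread, test or p-value can therefore be given, and "higher" and "lower" describe group values alone. Each strain stands for its genotype without a second strain. The label check held for *TIF3* itself, whose mRNA was 271.8-fold lower at 37 °C and 18.3-fold lower at 15 °C in *tif3*Δ in the authors' deposited table. The spacing of the lowest footprint values gave about 11900000 footprints in *tif3*Δ and 17500000 in wild type at 37 °C, and about 1840000 in *tif3*Δ and 5450000 in wild type at 15 °C. Depth of the mRNA libraries is unknown.

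The copies of a core histone gene are nearly identical, which bears on how well their reads can be told apart. In the R64 genome the H4 genes *HHF1* and *HHF2* differ at 8 of 312 coding bases (97.4% identity), the H2A genes at 25 of 399 (93.7%), the H3 genes at 28 of 411 (93.2%) and the H2B genes at 48 of 396 (87.9%). Of all 28-base stretches of coding sequence, about the length of a footprint, 45.6% of those of *HHF1* and *HHF2* occur again in the genome. The share was 26.6% for the H3 genes, 14.8% for the H2A genes and 2.71% for the H2B genes, and 0 of 378 and 0 of 750 stretches of *HTZ1* and *HHO1* occur again. The sources used here do not say how the authors assigned reads from shared stretches, so the split between copies of H4 and H3 is uncertain. The first 30 coding bases show both extremes, with capitals marking bases that differ from the other copy, on chromosomes IV (chrIV:914683-914712, minus strand) and II (chrII:236492-236521, plus strand) for H2B, and on chromosomes II (chrII:255655-255684, minus strand) and XIV (chrXIV:576727-576756, plus strand) for H4.
HTB1: atgtcTGctAAAgccgaaaagaaaccagcC
HTB2: atgtcCTctGCCgccgaaaagaaaccagcT
HHF1: atgtccggtagaggtaaaggtggtaaaggt
HHF2: atgtccggtagaggtaaaggtggtaaaggt
The H2B copies differ at 6 of these bases and the H4 copies at 0, so a read from this stretch of H4 fits both genes.

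Each divergent pair also shares its upstream activating element, the binding site of the activator Spt10. A longer spelling of that element was searched on both strands, namely TTCC, any 6 bases, TTC, any base and C. It was found in all 4 regions between the start codons of a pair, which are 646 to 817 bases long, and in 22 of 306 other regions of 600 to 850 bases between divergent genes (7.19%). The element searched is one already ascribed to these pairs, so nothing is read from this contrast. In windows from 250 bases before to 50 after a start codon, the longer spelling was in 0 of 10 members and in 89 of 6020 genes (1.48%). The elements found between the pairs lie at least 259 bases from either start codon, outside these windows. That distance concerns the core genes and not *HTZ1* and *HHO1*. The search of whole regions was added after the data were examined. Its 5 matches are shown with the element in capitals, read on the strand that carries it, to show what the pairs have in common. They lie at chrII:236101-236130 (minus strand), chrII:255937-255966 (minus), chrIV:915107-915136 (plus), chrIV:915130-915159 (minus) and chrXIV:576339-576368 (minus) of R64, in this order.
HTA2-HTB2: gtaaggtgTTCCCATTATTTCTCaaagtga
HHF1-HHT1: taaaactgTTCCGAGCGCTTCTCcccataa
HTB1-HTA1, first: agcgctgTTCCAAAATTTTCGCctcactgt
HTB1-HTA1, second: acactccaTTCCAATAGCTTCGCacagtga
HHT2-HHF2: gttgtccgTTCCGAGCACTTCGCattaagc
A match describes these letters and does not show that Spt10 bound there. A shorter string, TTC, any 6 bases and TTC, has 1 base less between its ends and so is not part of the longer one. It was found in 4 of 4 regions against 161 of 306 (52.6%), and in the windows of 4 of 10 members against 33.7% of genes. The motif ACGCGT of the G1/S factor MBF was found in 1 of 4 regions against 8.17% of the 306. Of the motifs of its relative SBF, CGCGAAA was found in 2 of 4 regions against 7.84%, whereas the spelling CACGAAA was found in 0 of 4 regions against 10.8%. The motif TATAAA was found in 3 of 4 regions against 72.5%.

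At 37 °C all 10 histone mRNAs were lower in *tif3*Δ than in wild type. From the differences in the authors' deposited table, mRNA was 3.79-fold lower for the median core histone gene (median log2 -1.92), 2.84-fold lower for *HHO1* and 2.15-fold lower for *HTZ1*. All 10 were past 1.5-fold, the size used for counts, as were 8.87% of the 5198 genes counted, and nothing is read from this share because these values chose the set. Fewer cells that transcribe these genes and less mRNA per cell cannot be told apart in such bulk samples.

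*HTA1* mRNA stood at log2 10.8 in *tif3*Δ and 12.7 in wild type, and *HTA2* mRNA at 10 in *tif3*Δ and 12.3 in wild type. For the H2B genes, which encode the partner of H2A, the values were 10.4 in *tif3*Δ against 12.1 in wild type for *HTB1*, and 10.3 in *tif3*Δ against 12.2 in wild type for *HTB2*. In the authors' deposited table the log2 differences were -1.97, -2.29, -1.67 and -1.97 for *HTA1*, *HTA2*, *HTB1* and *HTB2*. *HTA2* held the fourth lowest mRNA difference of all genes counted and *HTB2* the eleventh lowest (orders 4 and 11 of 5198).

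The H3 mRNA of *HHT1* was at log2 11.3 in *tif3*Δ and 13.0 in wild type, and that of *HHT2* at 11.5 in *tif3*Δ and 12.8 in wild type. *HHF1* mRNA, which encodes H4, was at 10.5 in *tif3*Δ and 12.8 in wild type, and *HHF2* mRNA at 10.7 in *tif3*Δ and 12.6 in wild type. The authors' deposited table gave log2 differences of -1.75, -1.35, -2.29 and -1.87 for *HHT1*, *HHT2*, *HHF1* and *HHF2*. *HHT2* had the smallest difference of the 8 core genes and *HHF1* nearly the same difference as *HTA2*. The single-copy genes were less abundant: *HTZ1* was at 7.8 in *tif3*Δ and 8.9 in wild type, and *HHO1* at 8.0 in *tif3*Δ and 9.5 in wild type.

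**Figure D1:**
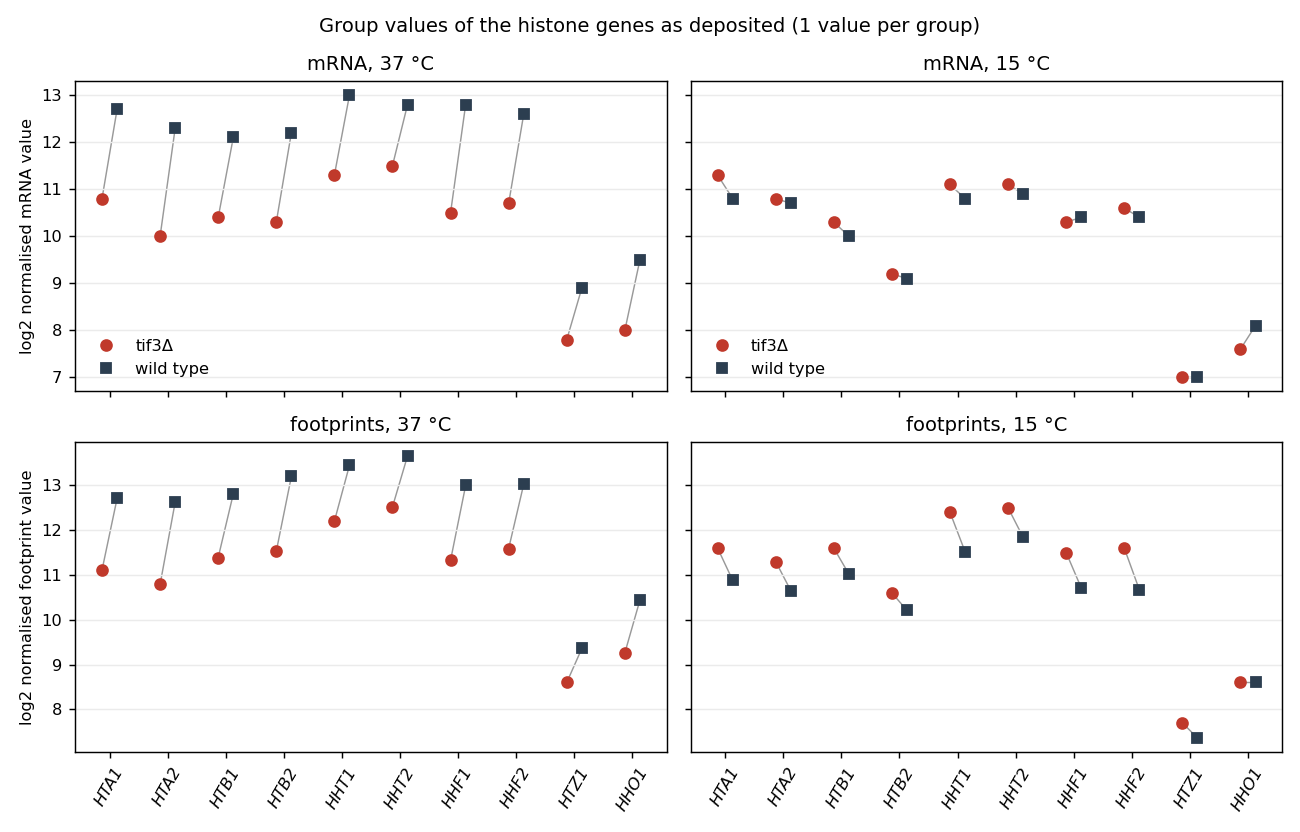
Log2 normalised mRNA values (top) and footprint values (bottom) of the 10 histone genes at 37 °C (left) and 15 °C (right), 1 value per group, with *tif3*Δ as red circles and wild type as dark squares. At 37 °C every *tif3*Δ value is below its wild-type value. At 15 °C the mRNA values lie close together and 9 of 10 footprint differences are above 0.

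Among wild-type genes at 37 °C the core histone mRNAs were abundant, at percentiles 96.1 to 98.2 of the genes counted, and their median was 3.65 log2 units above the median gene. In *tif3*Δ the same genes stood at percentiles 75.8 to 93.7, 1.5 log2 units above the median gene. Per kilobase of coding sequence, wild-type mRNA at 37 °C ran from 22857 normalised units for *HHF1* through 19932 for *HHT1* and 19899 for *HHF2* to 11086 for *HTB1*, with *HTZ1* at 1180 and *HHO1* at 932. *HHT1* and *HHF2* differ by less than the rounding of their values (0.1 log2 units). In *tif3*Δ the order per kilobase was led by *HHT2* with 7047 normalised units and *HHT1* with 6135, and *HTA2* was lowest of the core genes with 2566. *HTZ1* was at 550.3 and *HHO1* at 329 in *tif3*Δ.

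Footprints were lower in *tif3*Δ at 37 °C for all 10 genes as well, and by less than mRNA in each. By the differences in the authors' deposited table, the median core gene had 2.86-fold fewer footprints, *HHO1* 2.26-fold and *HTZ1* 1.70-fold fewer. All 10 were past 1.5-fold, against 13.2% of the 5197 genes counted, which belongs to the same comparison as the mRNA values that chose the set. *HTA2*, at log2 10.79 in *tif3*Δ and 12.63 in wild type, had the largest difference, -1.83 in the authors' deposited table. Its 95% counting interval was -1.91 to -1.76, from about 1645 footprints in *tif3*Δ and 8629 in wild type. *HHT2*, at 12.52 in *tif3*Δ and 13.66 in wild type, had the smallest of the core genes, -1.14 in the authors' deposited table (-1.19 to -1.10). These exact binomial intervals cover counting error only, since each group has 1 value and shows no spread between its libraries. Reads were also not marked as single molecules, so repeated reads of 1 molecule would be counted separately.

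The other core genes lay between these. Footprint values were 11.11 in *tif3*Δ and 12.71 in wild type for *HTA1*, 11.39 in *tif3*Δ and 12.81 in wild type for *HTB1*, and 11.53 in *tif3*Δ and 13.20 in wild type for *HTB2*. *HHT1* stood at 12.20 in *tif3*Δ and 13.45 in wild type, *HHF1* at 11.33 in *tif3*Δ and 13.00 in wild type, and *HHF2* at 11.59 in *tif3*Δ and 13.03 in wild type. In *tif3*Δ no core gene reached the level of any core gene in wild type. *HTZ1* had the fewest footprints, about 358 in *tif3*Δ and 895 in wild type, and a difference of -0.76 in the authors' deposited table, with a counting interval of -0.94 to -0.58. *HHO1* footprints were at 9.26 in *tif3*Δ and 10.44 in wild type.

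Translational efficiency (TE), footprints per mRNA, was higher in *tif3*Δ at 37 °C for all 10 histone genes. Their median difference was 0.36 on the log2 scale, where 52.6% of 5197 genes lay above 0. Because TE contains the mRNA value, a gene with lower mRNA tends to have higher TE by construction. *HHF1* had the largest TE difference at 0.62 and *HHT2* the smallest at 0.20 in the authors' deposited table. *HHF1* alone was past 1.5-fold, 1 of 10 members against 10.3% of all genes. Other genes with a coding length of 300 to 600 nt, the range of all members except *HHO1*, had a median TE difference of 0.45 at 37 °C, with 600 of 657 above 0, against 0.36 for the histone genes. The H3 and H4 genes had a median of 0.47 and the H2A and H2B genes one of 0.34. As a level, TE of the core genes lay at percentiles 61.3 to 87.0 of the genes counted in *tif3*Δ and 50.8 to 85.5 in wild type.

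At 15 °C the histone mRNAs were near the same level in the 2 strains, while footprints were higher in *tif3*Δ. The median log2 mRNA difference was 0.14 over the 10 genes and 0 of 10 were past 1.5-fold in either direction, against 6.78% of the 5015 genes counted that were higher and 5.84% that were lower. Above 0 were 7 of 10, against 50.4% of all genes and 442 of 620 other genes of 300 to 600 nt, whose median was 0.19. Footprints were above 0 for 9 of 10, against 50.5% of the 5012 genes counted, and at least 1.5-fold higher for 7 of 10, against 16.0% of all genes and 158 of 619 other genes of 300 to 600 nt. The median footprint difference was 0.64 over the 10 genes and 0.71 over the 8 core genes, where that of all genes was 0.01.

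Of the H2A and H2B mRNAs at 15 °C, *HTA1* stood at log2 11.3 in *tif3*Δ and 10.8 in wild type, and *HTA2* at 10.8 in *tif3*Δ and 10.7 in wild type. *HTB1* was at 10.3 in *tif3*Δ and 10 in wild type, and *HTB2* at 9.2 in *tif3*Δ and 9.1 in wild type. *HTA1* thus had the highest mRNA difference of the members, 0.42 in the authors' deposited table. Their footprint values were 11.6 in *tif3*Δ and 10.88 in wild type for *HTA1*, 11.3 in *tif3*Δ and 10.65 in wild type for *HTA2*, and 11.6 in *tif3*Δ and 11.02 in wild type for *HTB1*. *HTB2* footprints, at 10.6 in *tif3*Δ and 10.21 in wild type, had the smallest difference of the core genes, 0.35 in the authors' deposited table, with a counting interval of 0.22 to 0.48.

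The median footprint difference at 15 °C was 0.84 for the 4 H3 and H4 genes and 0.61 for the 4 H2A and H2B genes, with *HTA1* (0.76) above *HHT2* (0.66) in the authors' deposited table. *HHF2* footprints were at log2 11.6 in *tif3*Δ and 10.67 in wild type, a difference of 0.95 in the authors' deposited table, with a counting interval of 0.86 to 1.05 from about 1452 footprints in *tif3*Δ and 2257 in wild type. *HHT1* was at 12.4 in *tif3*Δ and 11.52 in wild type, *HHF1* at 11.5 in *tif3*Δ and 10.71 in wild type, and *HHT2* at 12.5 in *tif3*Δ and 11.84 in wild type. The mRNA of these genes differed little: *HHF1* stood at 10.3 in *tif3*Δ and 10.4 in wild type, *HHF2* at 10.6 in *tif3*Δ and 10.4 in wild type, *HHT1* at 11.1 in *tif3*Δ and 10.8 in wild type, and *HHT2* at 11.1 in *tif3*Δ and 10.9 in wild type.

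Per kilobase, the order of the core genes in footprints at 15 °C was led by H3 in both strains, *HHT2* with 14094 normalised units in *tif3*Δ and 8920 in wild type and *HHT1* with 13150 in *tif3*Δ and 7145 in wild type. *HTB2* was lowest, with 3919 in *tif3*Δ and 2991 in wild type.

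The single-copy genes had lower levels than the core genes at 15 °C. *HTZ1* mRNA was at log2 7.0 in both strains. Its footprints were at 7.7 in *tif3*Δ and 7.36 in wild type, from about 97 footprints in *tif3*Δ and 228 in wild type. The difference was 0.36 in the authors' deposited table, next to that of *HTB2*, with a counting interval of 0.002 to 0.71. *HHO1* was the only member with a footprint difference below 0, -0.05 in the authors' deposited table, with a counting interval of -0.30 to 0.20. Its mRNA, at 7.6 in *tif3*Δ and 8.1 in wild type, had a difference of -0.57 in the authors' deposited table, the lowest of the members and just inside 1.5-fold.

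TE at 15 °C was higher in *tif3*Δ for all 10 histone genes, with a median log2 difference of 0.49, against 49.7% of the 5012 genes counted that were above 0. *HHF1* (0.87) and *HHF2* (0.72) were past 1.5-fold in the authors' deposited table, 2 of 10 members against 13.9% of all genes. *HHT1*, *HTA2*, *HHO1*, *HHT2* and *HTZ1* followed at 0.53, 0.52, 0.52, 0.46 and 0.41 in the authors' deposited table, and *HTA1*, *HTB1* and *HTB2* were at 0.34, 0.31 and 0.28. Other genes of 300 to 600 nt had a TE median of 0.05 at 15 °C, with 342 of 619 above 0, and a footprint median of 0.27. The H3 and H4 genes had a median TE difference of 0.63 at 15 °C and the H2A and H2B genes one of 0.32. These medians had the same order at 37 °C, although *HHT2*, an H3 gene, had the smallest TE difference of all members there (0.20). As a level, *HHF1* TE stood at percentile 92.7 in *tif3*Δ and 67.7 in wild type at 15 °C, and *HHF2* TE at percentile 88.8 in *tif3*Δ and 65.5 in wild type. *HTB2* TE was high in both, at percentile 96.4 in *tif3*Δ and 94.3 in wild type. All 10 members were above 0 in TE at both temperatures, as were 31.8% of the 4999 genes counted at both. Nothing is read from this contrast, because TE at 37 °C contains the mRNA values that chose the set.

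**Figure D2:**
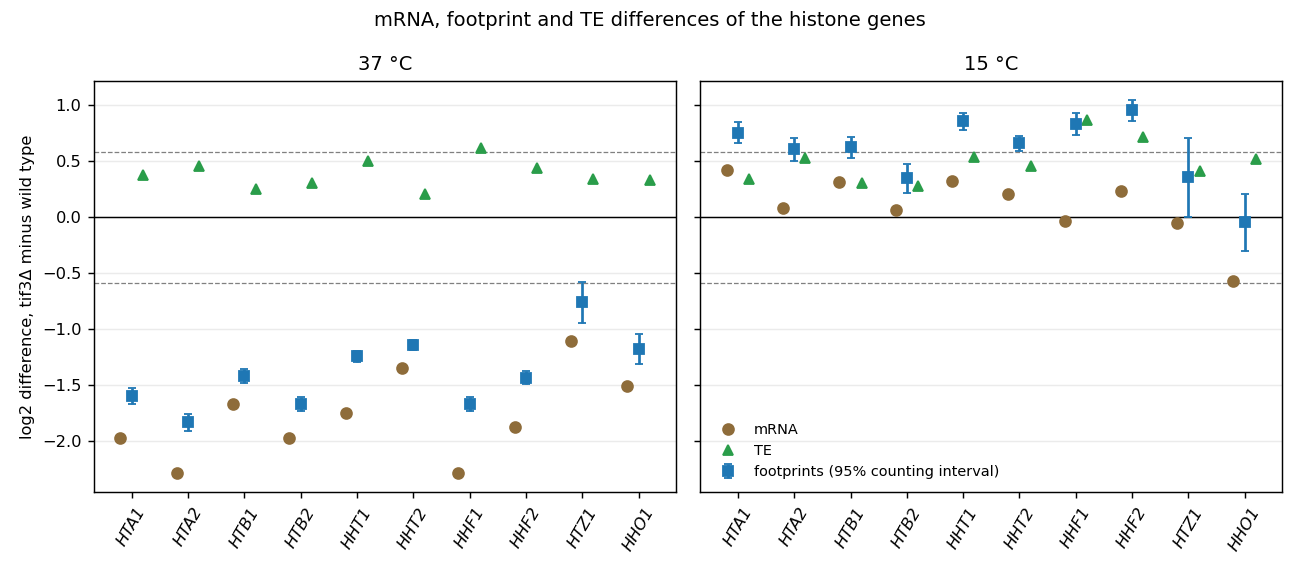
Log2 differences, *tif3*Δ minus wild type, of mRNA (circles), footprints (squares, with 95% counting intervals) and TE (triangles) for each histone gene at 37 °C (left) and 15 °C (right). Dashed lines mark 1.5-fold. TE differences are above 0 for all 10 genes in both panels, although mRNA and footprints lie below -0.7 at 37 °C and mostly above 0 at 15 °C.

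Footprints of 7 members were thus at least 1.5-fold lower in *tif3*Δ at 37 °C and at least 1.5-fold higher at 15 °C, namely *HTA1*, *HTA2*, *HTB1*, *HHT1*, *HHT2*, *HHF1* and *HHF2*. Of the 4999 genes counted at both temperatures, 36 (0.72%) did the same, and nothing is read from this contrast because the lower values at 37 °C belong to the comparison that chose the set. At 15 °C *HTA2* (1.52-fold) and *HTB1* (1.54-fold) were only just past that size. Their counting intervals, 0.50 to 0.71 and 0.53 to 0.71 on the log2 scale, reach below 1.5-fold. The difference between temperatures could not be tested, and the 2 tables were normalised separately. Relative to the median gene of each group, the median core histone mRNA was at log2 1.5 in *tif3*Δ and 3.65 in wild type at 37 °C, and at 3.30 in *tif3*Δ and 3.15 in wild type at 15 °C. The lowest of the 4 was that of *tif3*Δ at 37 °C. For footprints the same medians were 2.57 in *tif3*Δ and 4.14 in wild type at 37 °C, and 4.30 in *tif3*Δ and 3.5 in wild type at 15 °C.

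**Figure D3:**
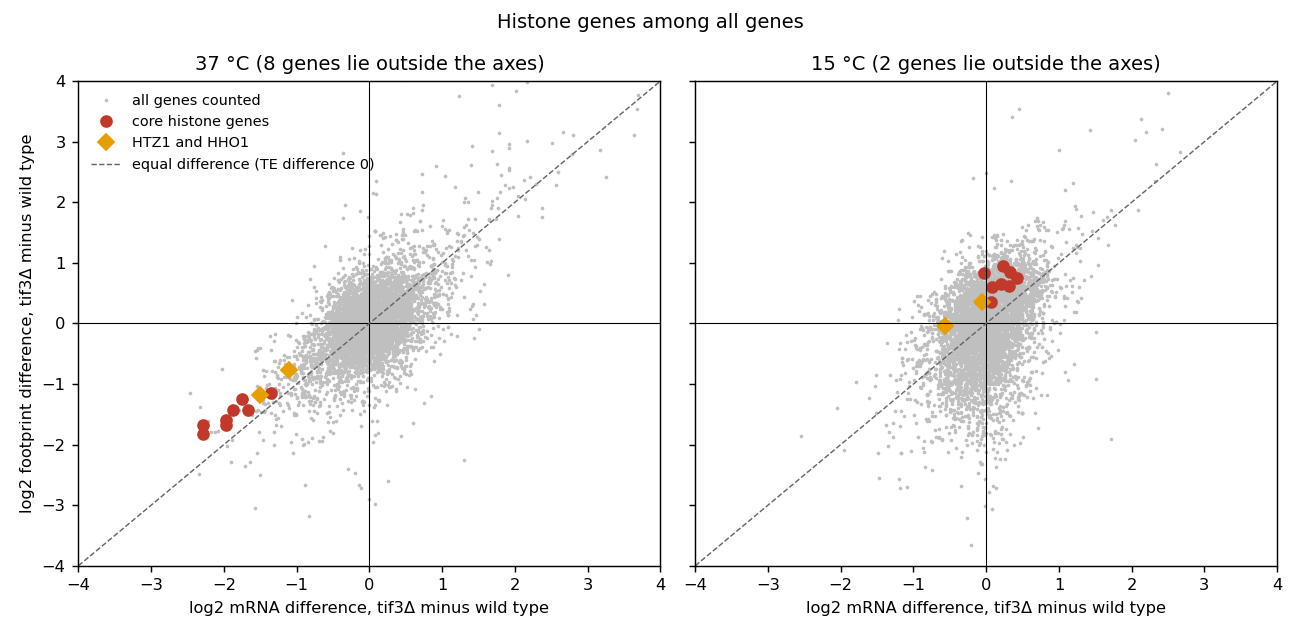
Log2 footprint difference against log2 mRNA difference, *tif3*Δ minus wild type, for all genes counted (grey), the 8 core histone genes (red) and *HTZ1* and *HHO1* (orange diamonds) at 37 °C and 15 °C. All 10 histone genes lie above the dashed line of equal difference, in the lower left at 37 °C and near an mRNA difference of 0 at 15 °C.

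The copies of a core histone differed by locus. For each core histone the copy on chromosome II (*HTA2*, *HTB2*, *HHT1* and *HHF1*) had the lower mRNA difference at 37 °C, and likewise the lower footprint difference. From the authors' deposited table, *HTA1* minus *HTA2* was 0.32 and *HTB1* minus *HTB2* was 0.31 in log2 mRNA difference, and these 4 genes form the divergent pairs *HTA1*-*HTB1* and *HTA2*-*HTB2*. *HHT1* minus *HHT2* was -0.40 and *HHF1* minus *HHF2* was -0.42 in mRNA, again nearly the same for the 2 genes of a locus. In footprints these 2 values were less alike, at -0.10 and -0.24, while those of H2A and H2B were 0.23 and 0.25. The median gene of chromosome II had an mRNA difference of -0.01 at 37 °C. In mRNA at 15 °C the *HTA1*-*HTB1* locus was again the higher one, by 0.33 for H2A and 0.25 for H2B, whereas *HHT1* minus *HHT2* was 0.12 and *HHF1* minus *HHF2* was -0.27.

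*HTA1* made up 62.2% of H2A mRNA in *tif3*Δ and 56.9% in wild type at 37 °C, and 57.5% in *tif3*Δ and 51.7% in wild type at 15 °C. *HTB1* made up 53.6% of H2B mRNA in *tif3*Δ and 48.3% in wild type at 37 °C, and 68.9% in *tif3*Δ and 65.1% in wild type at 15 °C. Both thus held a larger share in *tif3*Δ at either temperature. *HHT1* made up 46.5% of H3 mRNA in *tif3*Δ and 53.5% in wild type at 37 °C, and *HHF1* 46.3% of H4 mRNA in *tif3*Δ and 53.5% in wild type. At 15 °C *HHT1* made up 50.3% of H3 mRNA in *tif3*Δ and 48.3% in wild type, and *HHF1* 45.3% of H4 mRNA in *tif3*Δ and 50% in wild type, so *HHT1* held the larger share in wild type at 37 °C and in *tif3*Δ at 15 °C. These shares carry the uncertainty of shared reads, which is largest for H4, and the rounding of the mRNA values to 0.1 log2 units.

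Summed over both copies, mRNA at 37 °C was 4.29-fold lower in *tif3*Δ for H2A, 4.23-fold for H4, 3.53-fold for H2B and 2.92-fold for H3. Summed footprints were 3.27-fold lower for H2A, 2.94-fold for H2B, 2.92-fold for H4 and 2.28-fold for H3. Per kilobase, H3 had the most footprints and H2A the fewest at 37 °C, with 25765 and 10004 normalised units in *tif3*Δ and 58722 and 32679 in wild type. The range between the 4 histones was 2.58-fold in *tif3*Δ and 1.797-fold in wild type. At 15 °C summed mRNA was 1.20-fold higher in *tif3*Δ for H2A and H3, 1.18-fold for H2B and 1.08-fold for H4. Summed footprints at 15 °C were 1.86-fold higher in *tif3*Δ for H4, 1.68-fold for H3, 1.61-fold for H2A and 1.44-fold for H2B, and the range was 2.27-fold in *tif3*Δ and 1.95-fold in wild type.

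**Figure D4:**
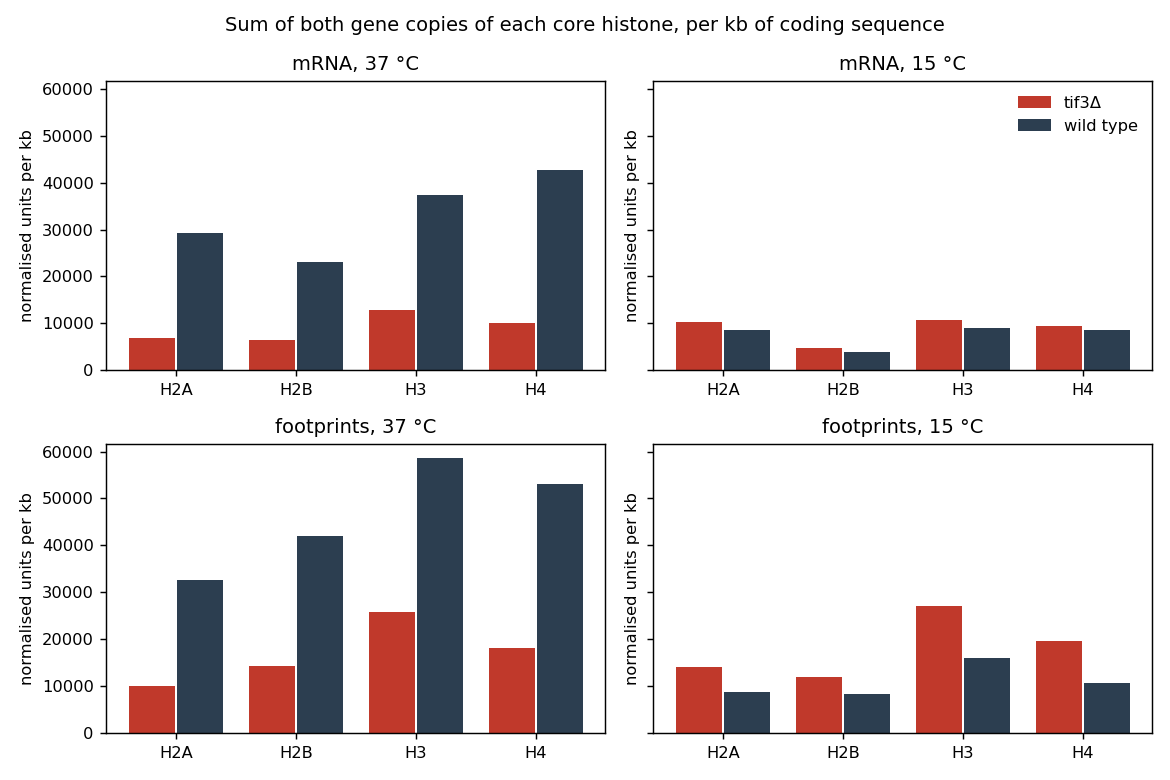
Normalised mRNA (top) and footprints (bottom) per kilobase of coding sequence, summed over both gene copies of H2A, H2B, H3 and H4, in *tif3*Δ (red, left bar) and wild type (dark, right bar) at 37 °C and 15 °C, 1 value per group. At 37 °C each red bar is below the dark one, and at 15 °C each red bar is above it, by more in footprints than in mRNA.

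Genes beside the histone loci did not share their mRNA difference. The 8 nearest listed protein-coding neighbours of the 4 pairs (*CRF1*, *ADK1*, *UTP20*, *ECM15*, *FLR1*, *IPP1*, *SIW14* and *KTR5*) lay between -0.49 and 0.41 in log2 mRNA difference at 37 °C, and 0 of 8 were past 1.5-fold. At 15 °C they lay between -0.35 and 0.97, and 1 of 8, the drug transporter *FLR1*, was past 1.5-fold. Of all genes counted, 8.87% were lower and 8.79% higher by that size at 37 °C. At 15 °C 5.84% were lower and 6.78% higher, so little can be read from counts among 8 genes.

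Likeness to the core histone pattern was measured as the Euclidean distance over 4 differences (mRNA and footprints at both temperatures) among 4464 genes. The pattern is the median of the 8 core genes themselves, which fixes in large part that they lie close to it, so their own distances of 0.23 to 0.69 are no finding. The nearest other gene was *DBP2*, an RNA helicase, at a distance of 0.68. Next came YCR016W (0.70), the citrate synthase *CIT2* (0.73), the G1 cyclin *PCL1* (0.79), YCR023C (0.79), *BDH2* (0.85), *GFD2* (0.87), the ribosome assembly factor *KRR1* (0.94), the aldehyde dehydrogenase *ALD6* (0.98) and the vacuole inheritance adaptor *VAC17* (1.01). Of these 10 genes, 6 lie on chromosome III, where the median mRNA difference at 37 °C was -0.79. Of the 5198 genes counted in mRNA at 37 °C, 127 lie on that chromosome. No member lies on that chromosome (0 of 10). *HTZ1* and *HHO1* were at distances of 1.20 and 1.22.

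Genes that act on histones were then set beside them, from 6 lists chosen with earlier results known. Of 13 measured histone gene regulators (the HIR repressor complex, Spt10, Spt21 and chromatin factors), 3 had mRNA at least 1.5-fold lower in *tif3*Δ at 37 °C and 0 were higher, with a median of -0.03. Across all 5198 genes 8.87% were lower and 8.79% higher, with a median of -0.01. The 3 were the HMG protein *NHP6A* (1.91-fold), *SPT21*, which acts with Spt10 at histone promoters (1.73-fold), and the histone chaperone *ASF1* (1.70-fold), in the authors' deposited table. Their log2 footprint differences at 37 °C were -0.81, -0.71 and -0.17 in the authors' deposited table. At 15 °C 3 of 13 were lower in mRNA, with a median of -0.28, namely *SPT21* (2.12-fold), *POB3* of the FACT complex (1.52-fold) and *HIR3* of the HIR complex (1.51-fold) in the authors' deposited table. In footprints at 15 °C 5 of 13 were at least 1.5-fold lower and 0 higher, with a median of -0.21. Of the 5012 genes counted, 1036 were lower and 801 higher in footprints. In TE 1 of 13 was higher and 3 were lower, with a median of 0.00. Of the same 5012 genes, 695 were higher and 946 lower in TE. *SPT10* TE was 1.69-fold higher, and TE was 2.64-fold lower for *YTA7*, a chromatin factor, 1.64-fold for *SPT16* and 1.60-fold for *SPT6*, in the authors' deposited table.

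Of the 14 histone chaperone and assembly genes, 3 had mRNA at least 1.5-fold lower at 37 °C and 0 higher, with a median of -0.26, where 8.87% of all genes were lower and 8.79% higher. The 3 were *RTT109*, the acetyltransferase of new H3, *CHZ1*, a chaperone of H2A.Z, and *HIF1*. Footprints of *CHZ1* were not lower: its log2 footprint difference at 37 °C was 0.43, with -0.52 for *RTT109* and -0.41 for *HIF1*, in the authors' deposited table. At 15 °C the median of the 14 genes was -0.09, with 0 past 1.5-fold, where 5.84% of all genes were lower and 6.78% higher. These mRNA shares of all genes also stand beside the mRNA counts of the lists that follow. In footprints at 15 °C 2 of the 14 were at least 1.5-fold higher and 2 lower, with a median of 0.06. Of the 5012 genes counted in footprints, 801 were higher and 1036 lower. *KAP123*, an importin that carries H3 and H4 into the nucleus, had 2.97-fold fewer footprints and *MSI1*, a subunit of chromatin assembly factor 1, had 1.82-fold more in *tif3*Δ in the authors' deposited table. Of the SWR1 and INO80 complexes, which exchange H2A.Z, 0 of 24 genes were past 1.5-fold in mRNA at 37 °C and 1 of 23 at 15 °C, *SWR1* itself, at 2.00-fold lower in the authors' deposited table. Its log2 footprint difference at 15 °C was 0.38 and its TE was 2.59-fold higher in the authors' deposited table. Medians in mRNA were 0.01 at 37 °C and -0.01 at 15 °C for 38 genes of histone acetyltransferases and deacetylases, with 1 higher and 2 lower at 37 °C and 2 higher and 1 lower at 15 °C. They were 0.13 and -0.02 for 25 genes of histone methylation and ubiquitination (0 and 1 past 1.5-fold). They were -0.08 and -0.01 for 12 genes listed for histone mRNA and protein turnover (1 and 1 past 1.5-fold, *RAD53* at both temperatures). That list also holds *PEP12*, which encodes an endosomal SNARE, so its values are not those of turnover genes alone. In TE at 15 °C 6 of 23 SWR1 and INO80 genes were at least 1.5-fold higher and 1 was lower (median 0.11). Of the 38 acetyltransferase and deacetylase genes 10 were higher and 4 lower (median 0.25). The methylation and turnover lists had TE medians of 0.06 and 0.12. Of the 5012 genes counted, 695 were higher and 946 lower in TE.

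Because histone genes are S-phase genes, lists of other cell-cycle genes were set beside them. At 37 °C 26 of 44 G1/S and S-phase genes had mRNA at least 1.5-fold lower in *tif3*Δ and 1 was higher, with a median of -0.65. With an average of at least 32 units required, the largest differences were those of the cohesin subunit *MCD1* (3.20-fold), the S-phase cyclin *CLB6* (3.16-fold), *TOS4* (3.07-fold) and the G1/S repressor *NRM1* (2.87-fold) in the authors' deposited table. Of 20 G2/M genes 8 were lower and 0 higher (median -0.46), among them the repressor *YHP1* (3.10-fold) and the mitotic cyclin *CLB1* (2.96-fold) in the authors' deposited table. Of 21 M/G1 genes 11 were higher and 0 lower (median 0.60), led by the transcription factor *TEC1* (5.19-fold) and the cell wall protein *PIR1* (2.77-fold) in the authors' deposited table. In this 37 °C comparison the G1/S and S-phase median and the G2/M median were below 0, like that of the histone genes. The M/G1 median was above 0. Whether these differences are linked to the histone result was not tested.

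At 15 °C the G1/S and S-phase list was again lower in *tif3*Δ, with 23 of 44 genes at least 1.5-fold lower, 0 higher and a median of -0.61, against 0 of 10 histone genes. *MCD1* was 2.52-fold, *TOS4* 2.24-fold, the ribonucleotide reductase *RNR1* 2.15-fold and the G1 cyclin *CLN2* 2.11-fold lower in the authors' deposited table. The G2/M list had a median of -0.39 (3 of 20 lower, 0 higher) and the M/G1 list one of 0.23 (1 of 21 higher, 1 lower). The medians in mRNA at 15 °C were thus 0.14 for the histone genes and -0.61 for this list, a contrast that was not tested. *HHO1*, at -0.57 in the authors' deposited table, lay beside the median of the list, and other genes of 300 to 600 nt had a median of 0.19. In TE at 15 °C the G1/S and S-phase list had a median of 0.17 (25 of 44 above 0) and the histone genes one of 0.49 (10 of 10 above 0). At 37 °C the TE median was -0.16 for this list (19 of 44 above 0) and 0.36 for the histone genes (10 of 10 above 0). Nothing is read from the 37 °C contrast, because TE there contains the mRNA values that chose the set.

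**Figure D5:**
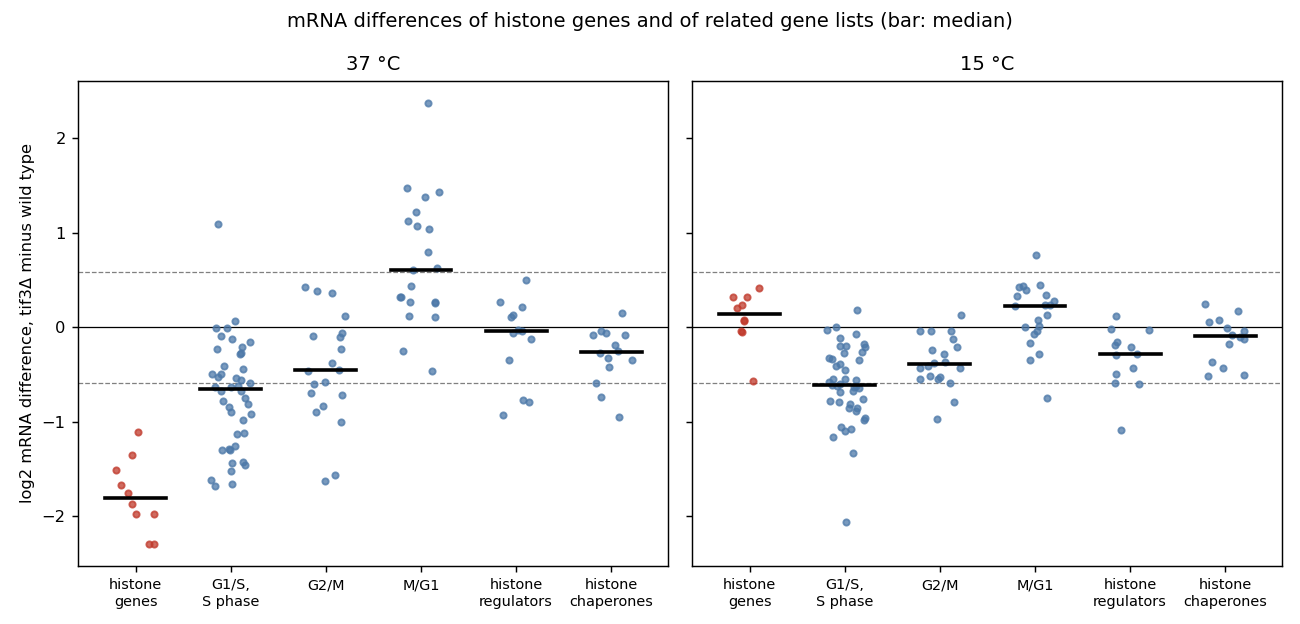
Log2 mRNA differences, *tif3*Δ minus wild type, of the histone genes (red) and of 5 lists (blue) at 37 °C (left) and 15 °C (right), 1 point per gene with the median as a black bar and 1.5-fold as dashed lines. The G1/S and S-phase list has medians of -0.65 and -0.61, while the histone genes have medians of -1.81 at 37 °C and 0.14 at 15 °C.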

How the data were processed

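The authors deposited 1 table per temperature with log2 normalised read values per gene, 1 for each of the 4 groups, and log2 differences for footprints, mRNA and TE (*tif3*Δ minus wild type, TE being footprints minus mRNA). Per the submitters' processing notes, the tools were TopHat2 2.0.7, Bowtie2 2.0.6, CASAVA 1.8 and DESeq, with no roles given, and the genome build was sacCer2. How the 2 libraries of a group were combined, and the normalisation itself, are not given in the sources used here. The deposited differences of the members equal those of the group values within 0.083 in mRNA and 0.047 in footprints, the rounding.

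Planned tests need single libraries and were replaced by descriptions. Genes counted averaged at least 10 normalised units in mRNA and in footprints. *TIF3* was left out, as were, for footprints and TE, genes without a footprint in a group. The members and lists were chosen with earlier results of these data known. Named genes were the members, the pairs' neighbours, the 10 nearest patterns, and from each list up to 4 members with the largest differences of at least 1.5-fold, given an average of at least 32 units. Footprint numbers are values over the value of 1 footprint (1.08 in *tif3*Δ and 0.735 in wild type at 37 °C, 2.17 and 0.722 at 15 °C), to which 100%, 97.2%, 87.6% and 87.1% of the low values were whole multiples within 0.15. Sequences, coding lengths and chromosomes are from RefSeq's R64 genome and annotation, matched by systematic name, with coordinates of that build and not of sacCer2. The step and interval code was tested on simulated data. Python 3.11.15 and SciPy 1.17.1 were used.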

Additional observations from a re-analysis of the deposited data

How the results depend on the processing

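No paired analysis was possible because the tables hold 1 value per group, and no library could be left out for the same reason. All differences kept their direction under the alternatives run, and 106 values stayed within 0.1 log2 units or 1.5 times of those reported while 22 did not, mostly counts with 2-fold as the size. The median histone mRNA difference at 37 °C was -1.81 for the 10 genes, -1.92 for the 8 core genes alone and -1.68 with copies summed. The 1 member past 1.5-fold in TE at 37 °C became 0 when differences were centred on the median of all genes. With 2-fold as the size, members past it numbered 0 in TE at 37 °C, 0 in footprints at 15 °C and 0 in TE at 15 °C, in place of 1, 7 and 2. The ratio of the highest to the lowest wild-type histone mRNA at 37 °C was 24.5 per kilobase and 17.1 without regard to length. With differences taken from the group values, 6 in place of 7 members were past 1.5-fold in footprints at 15 °C. Filters on low values left the counts of members as they were. Without genes of chromosome III, added after the data were examined, 374 in place of 461 genes had mRNA at least 1.5-fold lower at 37 °C. Footprint precision was lowest for *HTZ1* and *HHO1* at 15 °C.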

Other observations

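Chromosome III stood apart from the other chromosomes at 37 °C. Of its 127 genes counted, 117 (92.1%) had lower mRNA in *tif3*Δ than in wild type, with a median log2 difference of -0.79 (1.73-fold), while the medians of the other 15 nuclear chromosomes lay between -0.05 and 0.14. Footprints of these genes had a median of -0.81 and TE one of 0.06. At 15 °C the chromosome III median was 0.02 in mRNA, within the -0.06 to 0.05 of the other chromosomes. The histone genes lie on 5 other chromosomes. What sets this chromosome apart at 37 °C was not tested.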
